A study of Mus musculus with 9 samples.

Results

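The genes described here are Cspg4, Mcam, Higd1b, Cox4i2, Ndufa4l2 and Anpep, 6 of the 21049 genes in a table of RNA sequencing from smooth muscle cells sorted out of mouse lung. They were taken by gene symbol: Cspg4 names a driver of the arterial mouse line, and the other 5 are genes used as markers of pericytes. All 6 were found and all 6 passed the filter on low values. The study set the pulmonary smooth muscle types side by side, in 9 libraries that form 3 groups of 3. The group total_SMC was sorted from tg-Acta2-GFP mice and took in pulmonary smooth muscle of every kind, that of veins included. The group PASMC held pulmonary arterial smooth muscle cells from ASMC-effector mice of the genotype Cspg4/Acta2-CreER/R26-GFP. The group BSMC held bronchial smooth muscle cells from NVSMC-effector mice of the genotype Chrm2/Acta2-CreER/R26-GFP. Cells of each group were isolated by fluorescence-activated sorting, and the labels of all 3 groups give tamoxifen as an intraperitoneal dose of 0.75 mg for every 10 g of body weight, given on 3 days. Age, sex and strain are not given in the sources used here. Population, mouse line and sort changed together, so they cannot be told apart. Because the PASMC line was sorted with a Cspg4 driver, the level of Cspg4 in that group is no finding about arterial cells.

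Pericytes are mural cells that sit on capillaries inside the basement membrane they share with the endothelium, and they pass gradually into the smooth muscle of small vessels. Cspg4 encodes NG2, a transmembrane chondroitin sulfate proteoglycan of mural cells and of glial progenitors, and Mcam encodes CD146, an adhesion molecule of the immunoglobulin superfamily on endothelium and mural cells. Higd1b, Cox4i2 and Ndufa4l2 encode small mitochondrial proteins that are restricted relatives of widely expressed ones. The subunit COX4I2 is the form of cytochrome c oxidase subunit 4 that the lung is known for, and in pulmonary arterial muscle it takes part in oxygen sensing. NDUFA4L2 is induced by hypoxia-inducible factor 1 and lowers the activity of complex I. Anpep encodes aminopeptidase N (CD13), a membrane zinc peptidase that trims the amino ends of peptides.

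The 250 bases in front of the gene start are shown for Cspg4 and Mcam, whose levels were both lowest in total_SMC, and for Anpep, whose level was highest there. The RefSeq table used here held a window for these 3 of the 6 genes; Higd1b, Cox4i2 and Ndufa4l2 are named only. Sequences and their coordinates are those of GRCm38.p6, read 5′ to 3′ on the gene's strand, at chr9:56864854-56865103 on the plus strand for Cspg4, chr9:44134408-44134657 on the plus strand for Mcam and chr7:79848211-79848460 on the minus strand for Anpep. Capitals mark each GC box, GGGCGG on either strand.
Cspg4: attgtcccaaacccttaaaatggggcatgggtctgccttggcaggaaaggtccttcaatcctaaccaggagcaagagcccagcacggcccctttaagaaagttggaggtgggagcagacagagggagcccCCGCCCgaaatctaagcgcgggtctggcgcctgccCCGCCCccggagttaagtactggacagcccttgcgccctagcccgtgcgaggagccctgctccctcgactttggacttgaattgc
Mcam: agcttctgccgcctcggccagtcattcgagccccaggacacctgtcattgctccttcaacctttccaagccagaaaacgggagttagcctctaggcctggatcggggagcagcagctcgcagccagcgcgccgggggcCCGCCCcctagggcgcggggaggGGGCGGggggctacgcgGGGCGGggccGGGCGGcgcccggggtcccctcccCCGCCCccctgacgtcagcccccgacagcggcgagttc
Anpep: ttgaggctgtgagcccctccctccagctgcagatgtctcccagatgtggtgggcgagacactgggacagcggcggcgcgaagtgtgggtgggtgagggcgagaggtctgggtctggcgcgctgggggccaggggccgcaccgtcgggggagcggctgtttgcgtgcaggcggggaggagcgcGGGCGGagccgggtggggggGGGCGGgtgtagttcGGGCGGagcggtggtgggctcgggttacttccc
The Cspg4 window held 2 GC boxes, the Mcam window 5 and the Anpep window 3, and 32.7% of the 32851 windows of the same length held at least 1. Some of the GC boxes were on the reverse strand, where they read as CCGCCC. The core of a hypoxia response element, ACGTG or GCGTG on either strand, was found once in the Anpep window and not in the other two, against 38.6% of all windows. The E box CANNTG, which reads the same on both strands, was found 3 times in the Anpep window, once in the Mcam window and not in the Cspg4 window, against 66.2% of all windows. The site TGGGAA of the Notch effector RBPJ, on either strand, was in none of the 3 windows, against 21.6% of all windows. Neither was a CArG box, the site of serum response factor, which 1.47% of all windows held. The share of G and C was 60.4% for Cspg4, 73.6% for Mcam and 72.8% for Anpep. These matches describe letters in a window and are no evidence of binding.

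Levels below are the authors' normalized read counts per gene, and mean ± SD is over the 3 libraries of a group. A difference is on the scale of log2(value + 1), first-named group minus second, with the standard error (SE) of a limma fit to all genes. The 6 genes were chosen by symbol with their normalized counts in these 9 libraries, and the differences between the groups, already known, so their levels and differences are descriptions without a test. Tests are given for other genes, at an adjusted p (Benjamini-Hochberg over 15647 genes) under 0.05. The lists of these genes were also chosen with earlier results of these data known. The share of a list that passed is therefore a description. The share of all genes given beside it was not matched to the list for level. Summed values per library were 7.98 to 9.41 M, and the read depth implied by the spacing of the values was 6.39 to 10.01 M (M, 1000000 reads). The library BSMC replicate 2 stood apart from the rest of its group: its score on the first principal component was 68.1, against 114 for BSMC replicate 1 and 123.6 for BSMC replicate 3. Its implied depth was 9.33 M, against 7.14 M in BSMC replicate 1 and 6.39 M in BSMC replicate 3. Every total_SMC and PASMC library had 8.92 M or more, so lower depth was confined to BSMC replicates 1 and 3. The part of depth in the differences was not tested. It is not stated that each replicate was its own animal, so the spread given may be technical in part. In bulk libraries, fewer cells that carry a transcript and less of it per cell cannot be told apart.

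Cspg4, on chromosome 9 at 56772317 to 56807154 of mm39 (ENSMUSG00000032911, plus strand), had the lowest level in total_SMC. Its normalized counts were 585, 750 and 331 in total_SMC, 1958, 1658 and 2393 in PASMC, and 1296, 1469 and 1778 in BSMC. All 3 total_SMC libraries lay below all 6 libraries of the other two groups, while PASMC and BSMC overlapped. The means were 555 ± 211 in total_SMC, 2003 ± 370 in PASMC and 1514 ± 244 in BSMC. The log2 difference was -1.91 (SE 0.26) for total_SMC against PASMC, a 3.76-fold lower level, and -1.51 (SE 0.26) for total_SMC against BSMC, 2.85-fold lower. For PASMC against BSMC it was 0.40 (SE 0.26), which the overlap of the libraries does not separate from 0. BSMC, from a line whose driver was not Cspg4, thus held Cspg4 transcript at a level that overlapped that of the line sorted with it.

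Mcam, on chromosome 9 at 44045766 to 44054024 of mm39 (ENSMUSG00000032135, plus strand), was also lowest in total_SMC. Its normalized counts were 1824, 2318 and 2396 in total_SMC, 4320, 3928 and 4245 in PASMC, and 4306, 4334 and 4811 in BSMC. Again the total_SMC libraries lay below all others and PASMC overlapped BSMC. Mcam averaged 2179 ± 310 in total_SMC, 4164 ± 208 in PASMC and 4484 ± 284 in BSMC. The log2 difference was -0.94 (SE 0.12) for total_SMC against PASMC and -1.05 (SE 0.12) for total_SMC against BSMC, each close to a 2-fold lower level. For PASMC against BSMC it was -0.11 (SE 0.12), and this small difference turned to 0.13 when implied reads were used without scaling. Mcam shares 71 bases with Gm10687, a long non-coding gene on the other strand that averaged 21.7, 79.0 and 96.3 in total_SMC, PASMC and BSMC, and the library kit does not keep strand.

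**Figure D1:**
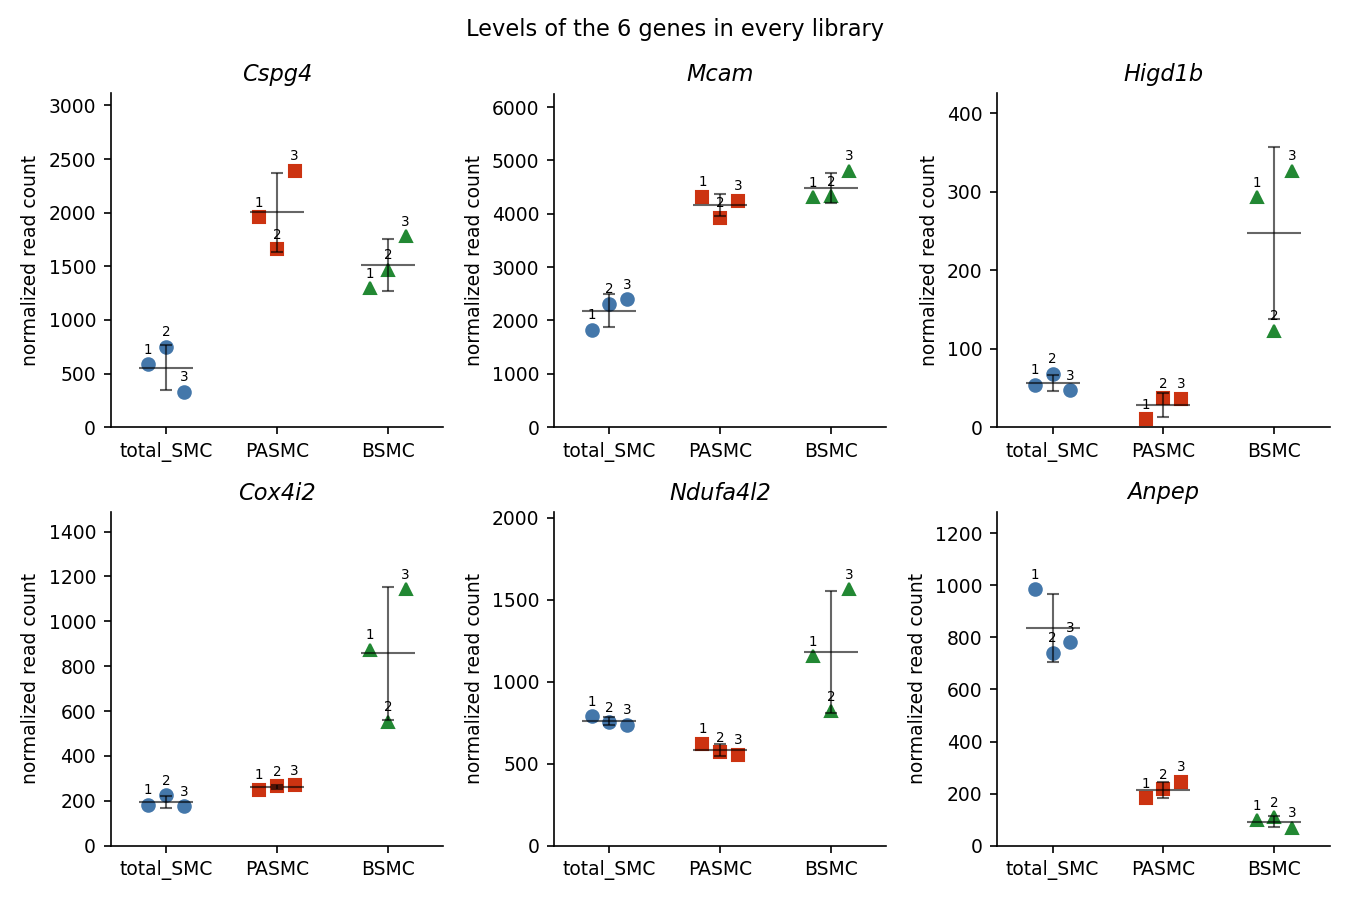
Normalized read counts (y axis, linear from 0, own scale in each panel) of the 6 genes in the 3 libraries of each group (x axis), with the replicate number above each point; the long bar is the mean and the whisker the SD. Cspg4 and Mcam were lowest in total_SMC, Higd1b, Cox4i2 and Ndufa4l2 highest in BSMC, where replicate 2 was the lowest point, and Anpep highest in total_SMC.

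Higd1b, Cox4i2 and Ndufa4l2 were all highest in BSMC, and in each the 3 BSMC libraries lay above the other 6. Higd1b, a relative of the hypoxia-induced respiratory chain factor Higd1a, lies on chromosome 11 at 102726675 to 102728866 (ENSMUSG00000020928, plus strand). Its normalized counts were 54, 68 and 47 in total_SMC, 10, 37 and 36 in PASMC, and 293, 123 and 327 in BSMC. No libraries overlapped between groups, with PASMC lowest, but the PASMC level rested on few reads. The means were 56.3 ± 10.7 in total_SMC, 27.7 ± 15.3 in PASMC and 248 ± 109 in BSMC. The log2 difference was 1.19 (SE 0.50) for total_SMC against PASMC, -2.01 (SE 0.50) for total_SMC against BSMC and -3.20 (SE 0.50) for PASMC against BSMC. Without PASMC replicate 1, the library with a count of 10, the first of these was 0.60.

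Cox4i2 lies on chromosome 2 at 152596093 to 152606957 (ENSMUSG00000009876, plus strand). Its normalized counts were 183, 224 and 175 in total_SMC, 250, 266 and 269 in PASMC, and 874, 552 and 1144 in BSMC. The groups did not overlap, and PASMC differed from BSMC by far more than total_SMC did from PASMC. Cox4i2 averaged 194 ± 26.3 in total_SMC, 262 ± 10.2 in PASMC and 857 ± 296 in BSMC. The log2 difference was -0.44 (SE 0.24) for total_SMC against PASMC, -2.08 (SE 0.24) for total_SMC against BSMC and -1.65 (SE 0.24) for PASMC against BSMC. The oxygen-sensing subunit known from pulmonary arteries was thus at its highest level in the bronchial sort.

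Ndufa4l2 lies on chromosome 10 at 127350836 to 127353023 (ENSMUSG00000040280, plus strand). Its normalized counts were 789, 754 and 737 in total_SMC, 623, 570 and 554 in PASMC, and 1157, 821 and 1566 in BSMC. The lowest BSMC library, replicate 2, stood only a little above the highest total_SMC library. Ndufa4l2 averaged 760 ± 26.5 in total_SMC, 582 ± 36.1 in PASMC and 1181 ± 373 in BSMC. The log2 difference was 0.38 (SE 0.20) for total_SMC against PASMC, -0.59 (SE 0.20) for total_SMC against BSMC and -0.97 (SE 0.20) for PASMC against BSMC. The second of these was -0.36 without BSMC replicate 3. Ndufa4l2 shares 32 bases with Shmt2 on the other strand, a gene of mitochondrial serine metabolism that averaged 890, 914 and 920 in total_SMC, PASMC and BSMC, so reads at that end cannot be assigned by strand.

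In BSMC, replicate 2 had the lowest count of its group in Higd1b, Cox4i2 and Ndufa4l2. Leukocyte markers behaved alike: their sum over 20 genes was 392, 498 and 387 per 1000000 in total_SMC, 306, 312 and 327 in PASMC, and 2139, 1447 and 2153 in BSMC. Both Higd1b and the sum of these markers were highest in BSMC and lowest in PASMC. In PASMC 7 of the 20 were at 0 in all libraries, among them the pan-leukocyte gene Ptprc, while none was at 0 throughout total_SMC or BSMC. Of the 19 tested, 19 were lower in total_SMC than in BSMC and 18 lower in PASMC than in BSMC. For total_SMC against PASMC 10 were higher and 1 lower. Most of the PASMC sum came from Lyz2, Cd74 and H2-Ab1, which averaged 1734, 736 and 227 there. Lyz2 averaged 404 in total_SMC, below its PASMC level, so the sums of these 2 groups hide the direction of most of the list. Markers of contractile smooth muscle were 18 genes, with none at 0 in a whole group. Their sums were 5250 to 5779 per 1000000 in total_SMC, 6405 to 7253 in PASMC and 6828 to 8394 in BSMC. In BSMC the lowest sum was again that of replicate 2, the deepest library of its group at 9.33 M implied reads. The part of depth in these sums was not tested. Nor was the part of leukocytes or contractile cells in the levels of Higd1b, Cox4i2 and Ndufa4l2.

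Anpep, on chromosome 7 at 79471551 to 79510807 (ENSMUSG00000039062, minus strand), ran the other way. Its normalized counts were 986, 741 and 781 in total_SMC, 182, 216 and 245 in PASMC, and 98, 109 and 69 in BSMC. Every total_SMC library was above every PASMC library, and every PASMC library above every BSMC library. The means were 836 ± 131 in total_SMC, 214 ± 31.5 in PASMC and 92 ± 20.7 in BSMC. The log2 difference was 1.96 (SE 0.22) for total_SMC against PASMC, 3.18 (SE 0.22) for total_SMC against BSMC, which is 9.09-fold, and 1.23 (SE 0.22) for PASMC against BSMC.

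The share of all tested genes whose libraries did not overlap was 40.5% for total_SMC against PASMC (22.6% higher in total_SMC, 18.0% lower), 50.5% for total_SMC against BSMC (26.6% higher in total_SMC, 23.9% lower) and 35.2% for PASMC against BSMC (17.6% in each direction). Separation of this kind was thus common in the table, and nothing is read from its count among the 6 genes. The genes did not move as 1 block. Likeness of 2 genes was measured as the root mean square difference of their log2 values over the 9 libraries, after each gene was centred on its own mean. It was closest for Cspg4 and Mcam, at 0.531, followed by Mcam and Ndufa4l2 at 0.596 and Cox4i2 and Ndufa4l2 at 0.624. Higd1b and Anpep were farthest apart, at 2.38. A small value does not need a shared direction. For total_SMC against PASMC the log2 difference was -0.94 for Mcam and 0.38 for Ndufa4l2. Implied reads per exonic base take gene length into account, but they depend on the length used. Mcam had 0.68 implied reads per base in total_SMC, 1.34 in PASMC and 1.24 in BSMC, the densest of the 6 in PASMC and BSMC. In total_SMC Ndufa4l2 was denser, at 0.729. In BSMC, Cox4i2 at 0.970 and Ndufa4l2 at 0.967 followed Mcam, and Anpep was the least dense at 0.0213.

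Density bears on how far a difference can be read. Of 15367 tested genes with a known exon length, 235 reached 1 implied read per exonic base. The variance of implied reads between libraries of a group was divided by its mean. The median of this ratio was 24.2 at 0.2 to 0.4 reads per base, 8.07 at 1 to 1.5 and 1.19 above 1.5. The last covers the 28 densest genes. These reads were not scaled for depth, which ran from 6.39 to 9.33 M in BSMC, so the ratio does not measure counting noise alone. Reads that rose with depth would lift it. For Mcam, at 1.09 reads per base over all libraries, the ratio was 42.2, above the median of its range. Cox4i2, at 0.53, had a ratio of 11.8, below the median of 19.7 at 0.4 to 0.7 reads per base. Ndufa4l2, at 0.757, also had 11.8, close to the median of 12.1 at 0.7 to 1. Mcam in PASMC and BSMC, and Cox4i2 and Ndufa4l2 in BSMC, lay near 1 read per base. Whether a ceiling on reads per position narrowed the differences of these genes was not tested.

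**Figure D2:**
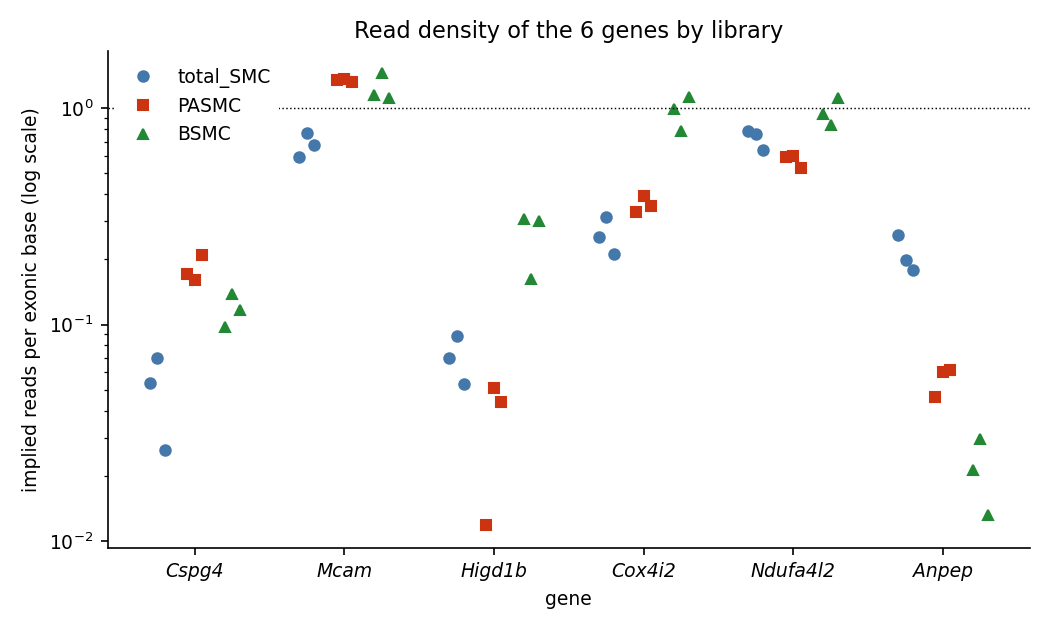
Implied reads per exonic base (y axis, log scale) of each gene (x axis) in each library, with total_SMC, PASMC and BSMC from left to right within a gene; the dotted line marks 1 read per base. Mcam in PASMC and BSMC lay above the line and Cox4i2 and Ndufa4l2 in BSMC close to it, while Cspg4, Higd1b and Anpep lay well below.

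The widely expressed relatives of the mitochondrial genes were measured and tested in the same libraries. Cox4i1, the general form of subunit 4, averaged 980 ± 56.5 in total_SMC, 1003 ± 83.4 in PASMC and 1225 ± 227 in BSMC. Its log2 difference was -0.31 (SE 0.15) for total_SMC against BSMC and did not pass the test (limma adjusted p 0.118), but the adjusted p was 0.0101 without BSMC replicate 2, 0.0269 with equal totals, 0.0281 with quantile normalization and 0.0476 with cyclic loess. Ndufa4, a subunit of cytochrome c oxidase once assigned to complex I, averaged 608 ± 9.17 in total_SMC, 642 ± 67.8 in PASMC and 827 ± 143 in BSMC. Its difference of -0.43 (SE 0.16) for total_SMC against BSMC passed narrowly (adjusted p 0.0465) and did not pass when any 1 library other than BSMC replicate 2 was left out, nor with no filter (adjusted p 0.0564), plain eBayes (0.0731) or implied reads without scaling (0.183). Higd1a averaged 495 ± 39.6 in total_SMC, 646 ± 54.0 in PASMC and 846 ± 93.3 in BSMC, and was lower in total_SMC than in BSMC by -0.77 (SE 0.14, adjusted p 0.00153). All 3 relatives thus had their highest mean normalized count in BSMC as well. Without scaling the rise was smaller. In total_SMC, PASMC and BSMC, implied reads per exonic base averaged 0.661, 0.699 and 0.72 for Cox4i1 and 0.462, 0.502 and 0.546 for Ndufa4. For Higd1a they averaged 0.171, 0.23 and 0.257. In BSMC replicates 1 to 3 Cox4i1 had 1121, 1103 and 1123 implied reads, but normalized counts of 1253, 986 and 1437. For total_SMC against BSMC, the differences of the 3 relatives were smaller than those of Cox4i2 and Higd1b. Those of Ndufa4 and Ndufa4l2 lay within each other's errors.

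The balance of each pair was read as the ratio of values per exonic base. The ratio of Cox4i2 to Cox4i1 was 0.374, 0.472 and 0.330 in total_SMC, 0.484, 0.573 and 0.491 in PASMC, and 1.37, 1.10 and 1.57 in BSMC. The ratio was highest in BSMC, without overlap with the other groups. Which form was the denser in BSMC depended on the length used: per base of the longest transcript, Cox4i2 had 1.07, 0.843 and 1.22 implied reads and Cox4i1 1.47, 1.44 and 1.47 in the 3 BSMC libraries, so that the general form was the denser in each. By that length Cox4i1 lay at 1.29 to 1.47 in all 9 libraries. Whether a ceiling on reads per position held Cox4i1 level, and so shaped the ratio, was not tested. The ratio of Higd1b to Higd1a was 0.360, 0.531 and 0.346 in total_SMC, 0.0557, 0.224 and 0.184 in PASMC, and 1.13, 0.591 and 1.36 in BSMC. Ndufa4l2 over Ndufa4 was flatter, at 1.66, 1.56 and 1.51 in total_SMC, 1.20, 1.26 and 0.994 in PASMC, and 1.69, 1.55 and 2.08 in BSMC, with overlap between total_SMC and BSMC. These ratios contain the members and carry no test.

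**Figure D3:**
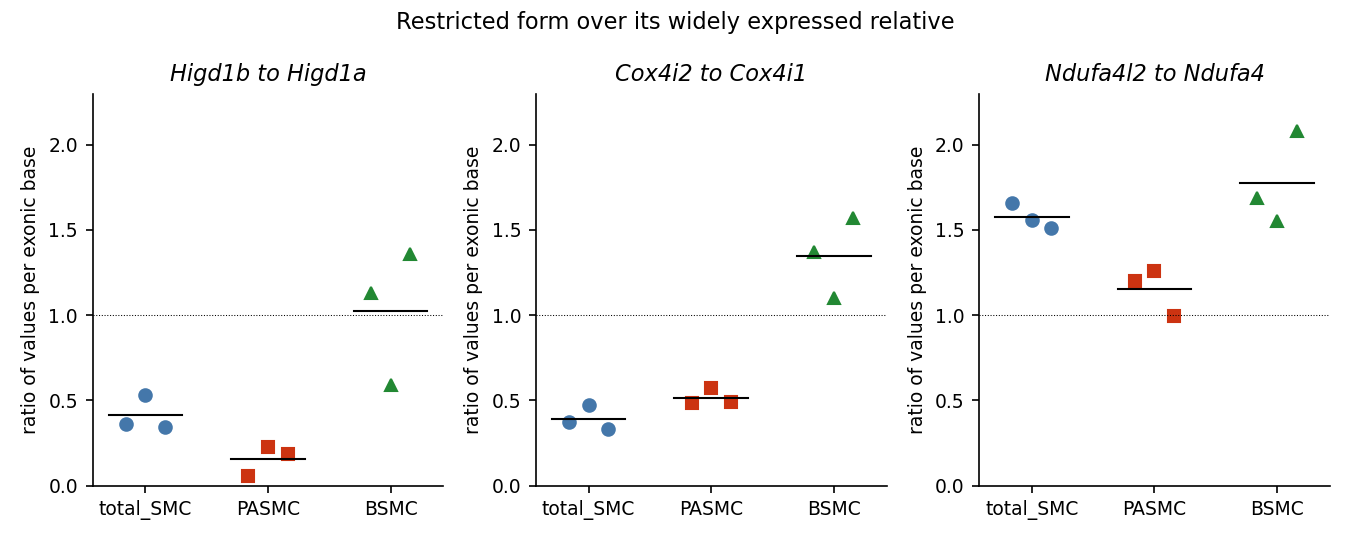
Ratio of each restricted mitochondrial gene to its widely expressed relative, as values per exonic base (y axis, linear from 0), in the 3 libraries of each group (x axis), with the mean as a bar and a dotted line at equal density over the union of exons. Cox4i2 over Cox4i1 averaged 0.392 in total_SMC, 0.516 in PASMC and 1.35 in BSMC.

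Subunits and assembly factors of cytochrome c oxidase were tested as a list of 32 measured genes. For total_SMC against BSMC, 1 was higher, 15 were lower and 16 did not pass, with a median log2 difference of -0.53, where 41.9% of all tested genes passed, 23.7% higher and 18.2% lower, and the median of all was 0.05. Cox5a, a core nuclear subunit, averaged 296 ± 34.4 in total_SMC and 534 ± 108 in BSMC (-0.83, SE 0.19, adjusted p 0.00511). Cox17, a copper chaperone of the enzyme, averaged 328 ± 29.0 in total_SMC and 570 ± 114 in BSMC (-0.78, SE 0.18, adjusted p 0.00599). Coa5, an assembly factor, was the member that was higher, at 1286 ± 95.0 in total_SMC and 757 ± 288 in BSMC (0.83, SE 0.22, adjusted p 0.0106). The count of 16 called genes was 5 on implied reads without scaling and 25 with equal totals; leaving out a library gave 25 without BSMC replicate 2, 8 without total_SMC replicate 1 or BSMC replicate 1, 10 without total_SMC replicate 2, and 7 without total_SMC replicate 3 or BSMC replicate 3. For PASMC against BSMC 0 were higher and 7 lower, where 22.1% of all genes passed (13.2% higher and 8.88% lower); that count was 22 without BSMC replicate 2, 1 without PASMC replicate 1 or 2 or BSMC replicate 1 or 3, and 4 without any other library. On implied reads without scaling it was 0, with plain eBayes 2 and with quantile normalization 11. For total_SMC against PASMC 0 of the 32 were higher and 1 was lower, where 16.2% of all genes passed (9.39% higher and 6.83% lower).

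Ndufa4l2 belongs to the response to hypoxia-inducible factors, and 33 other targets of these factors were tested, Higd1a among them. They did not share a direction. Against PASMC, 2 were higher in total_SMC and 6 lower (median -0.05), or 24.2% of the list beside 16.2% of all genes, and the count of 8 was 4 without PASMC replicate 2. Against BSMC, 10 were higher in total_SMC and 9 lower (median -0.13), or 57.6% beside 41.9% of all genes. Vegfa, the endothelial growth factor, averaged 1455 ± 138 in total_SMC, 670 ± 94.8 in PASMC and 834 ± 126 in BSMC, and was higher in total_SMC than in PASMC by 1.12 (SE 0.16, adjusted p 0.00049) and than in BSMC by 0.81 (SE 0.16, adjusted p 0.00181). P4ha1, a collagen prolyl hydroxylase, was likewise higher in total_SMC than in PASMC (1.11, SE 0.12, adjusted p 8.99e-05). Against these, Slc16a3, which exports lactate, averaged 172 ± 23.7 in total_SMC, 309 ± 21.2 in PASMC and 388 ± 40.9 in BSMC, and was lower in total_SMC than in BSMC by -1.17 (SE 0.18, adjusted p 0.000353). Hk2, a hexokinase, averaged 35.7 ± 11.7 in total_SMC and 150 ± 39.5 in BSMC, a difference of -2.05 (SE 0.34, adjusted p 0.000776). In PASMC against BSMC 4 were higher and 1 lower, or 15.2% beside 22.1% of all genes; this count of 5 was 16 without BSMC replicate 2, 1 without PASMC replicate 1, 2 without PASMC replicate 2 or BSMC replicate 1, and 3 without any other library.

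Of the factors themselves and their regulators, 11 genes were tested. Against PASMC, 0 were higher in total_SMC and 2 lower, or 18.2% beside 16.2% of all genes; that count was 0 without PASMC replicate 2 and 1 without PASMC replicate 3 or any total_SMC replicate. In total_SMC 2 were higher than in BSMC and 2 lower, or 36.4% beside 41.9% of all genes. Hif1an, the asparaginyl hydroxylase that inhibits the factors, averaged 862 ± 149 in total_SMC, 603 ± 137 in PASMC and 171 ± 102 in BSMC. It was higher in total_SMC than in BSMC by 2.49 (SE 0.36, adjusted p 0.000267) and higher in PASMC than in BSMC by 1.97 (SE 0.36, adjusted p 0.00257). Between PASMC and BSMC, 3 were higher and 1 lower, or 36.4% beside 22.1% of all genes, a count of 4 that was 1 without PASMC replicate 1 and 2 without any other library except total_SMC replicate 2 and BSMC replicate 2.

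Proteins known to bind NG2, the product of Cspg4, or to cut it were tested as 19 genes. In total_SMC against PASMC 5 were higher and 2 lower, or 36.8% beside 16.2% of all genes, a count of 7 that was 4 without total_SMC replicate 1 and 3 without any other total_SMC or any PASMC library. For total_SMC against BSMC 10 were higher and 4 lower (median 0.52), or 73.7% beside 41.9% of all genes, and for PASMC against BSMC 5 were higher and 3 lower, or 42.1% beside 22.1% of all genes. Itga3, the alpha 3 integrin subunit that NG2 engages, averaged 737 ± 79.4 in total_SMC, 1577 ± 158 in PASMC and 1497 ± 213 in BSMC. Like Cspg4 it was lower in total_SMC than in both others, by -1.10 against PASMC (SE 0.14, adjusted p 0.000361) and by -1.02 against BSMC (SE 0.14, adjusted p 0.000242). Col6a3, a chain of the collagen VI that NG2 binds, averaged 4207 ± 217 in total_SMC, 3891 ± 286 in PASMC and 1638 ± 268 in BSMC, and was higher in total_SMC than in BSMC by 1.37 (SE 0.13, adjusted p 1.26e-05). Mpdz, a PDZ scaffold for the NG2 tail, was higher in total_SMC than in BSMC by 1.71 (SE 0.26, adjusted p 0.000408). Pdgfa, a growth factor ligand, averaged 548 ± 36.2 in total_SMC and 1459 ± 300 in BSMC (-1.39, SE 0.16, adjusted p 6.19e-05). Adam10, a sheddase that cleaves NG2, was higher in total_SMC than in BSMC by 1.25 (SE 0.14, adjusted p 5.06e-05).

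Ligands and partners of CD146, the product of Mcam, were tested as 19 genes. In total_SMC against PASMC 7 were higher and 2 lower (median 0.40), or 47.4% beside 16.2% of all genes, and the count of 9 was 5 without total_SMC replicate 2. In total_SMC against BSMC 12 were higher and 3 lower (median 0.72), or 78.9% beside 41.9% of all genes. In PASMC against BSMC 8 were higher and 0 lower (median 0.27), or 42.1% beside 22.1% of all genes, a count that was 14 without BSMC replicate 2. Lama4, a chain of the laminin that CD146 binds, averaged 5561 ± 291 in total_SMC, 4240 ± 627 in PASMC and 1983 ± 446 in BSMC, and was higher in total_SMC than in BSMC by 1.51 (SE 0.15, adjusted p 2.66e-05). Wnt5a, a ligand of CD146, averaged 1775 ± 236 in total_SMC, 1112 ± 104 in PASMC and 306 ± 58.8 in BSMC (total_SMC against BSMC 2.54, SE 0.17, adjusted p 1.13e-06). Kdr, the VEGF receptor that CD146 assists on endothelium, averaged 1112 ± 70.4 in total_SMC, 277 ± 82.0 in PASMC and 255 ± 34.5 in BSMC. It was higher in total_SMC than in PASMC by 2.04 (SE 0.21, adjusted p 8.25e-05). Summed endothelial markers, 18 genes that include Kdr, were 2192 to 2828 per 1000000 in total_SMC, 1403 to 1719 in PASMC and 1859 to 2162 in BSMC, and their part in these differences was not tested.

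Anpep was set beside 20 other measured peptidases of the cell surface or related to it. For total_SMC against PASMC 8 were higher and 2 lower (median 0.81), beside 9.39% higher and 6.83% lower of all genes. For total_SMC against BSMC 13 were higher and 1 was lower (median 1.43), beside 23.7% higher and 18.2% lower of all genes. For PASMC against BSMC 7 were higher and 1 lower (median 0.47), beside 13.2% higher and 8.88% lower of all genes, and this count of 8 was 5 without PASMC replicate 1. Dpp4, a dipeptidyl peptidase, averaged 640 ± 66.5 in total_SMC, 79.7 ± 36.6 in PASMC and 103 ± 49.1 in BSMC, and was higher in total_SMC than in PASMC by 3.11 (SE 0.42, adjusted p 0.000421) and than in BSMC by 2.75 (SE 0.42, adjusted p 0.000392). Mme, neprilysin, averaged 483 ± 91.2 in total_SMC, 122 ± 23.0 in PASMC and 76.7 ± 27.5 in BSMC (total_SMC against BSMC 2.69, SE 0.29, adjusted p 3.48e-05). Enpep, aminopeptidase A of the angiotensin pathway, was higher in PASMC than in BSMC (1.60, SE 0.24, adjusted p 0.000851), and total_SMC against PASMC did not pass (-0.38, SE 0.24, adjusted p 0.361). Cpm, a membrane carboxypeptidase, averaged 66.3 ± 10.0 in total_SMC, 214 ± 57.2 in PASMC and 47.3 ± 15.9 in BSMC, and was lower in total_SMC than in PASMC by -1.65 (SE 0.31, adjusted p 0.003). Aopep, another aminopeptidase, was the gene lower in total_SMC, at 1725 ± 138, against 3004 ± 345 in BSMC (-0.80, SE 0.11, adjusted p 0.000262).

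**Figure D4:**
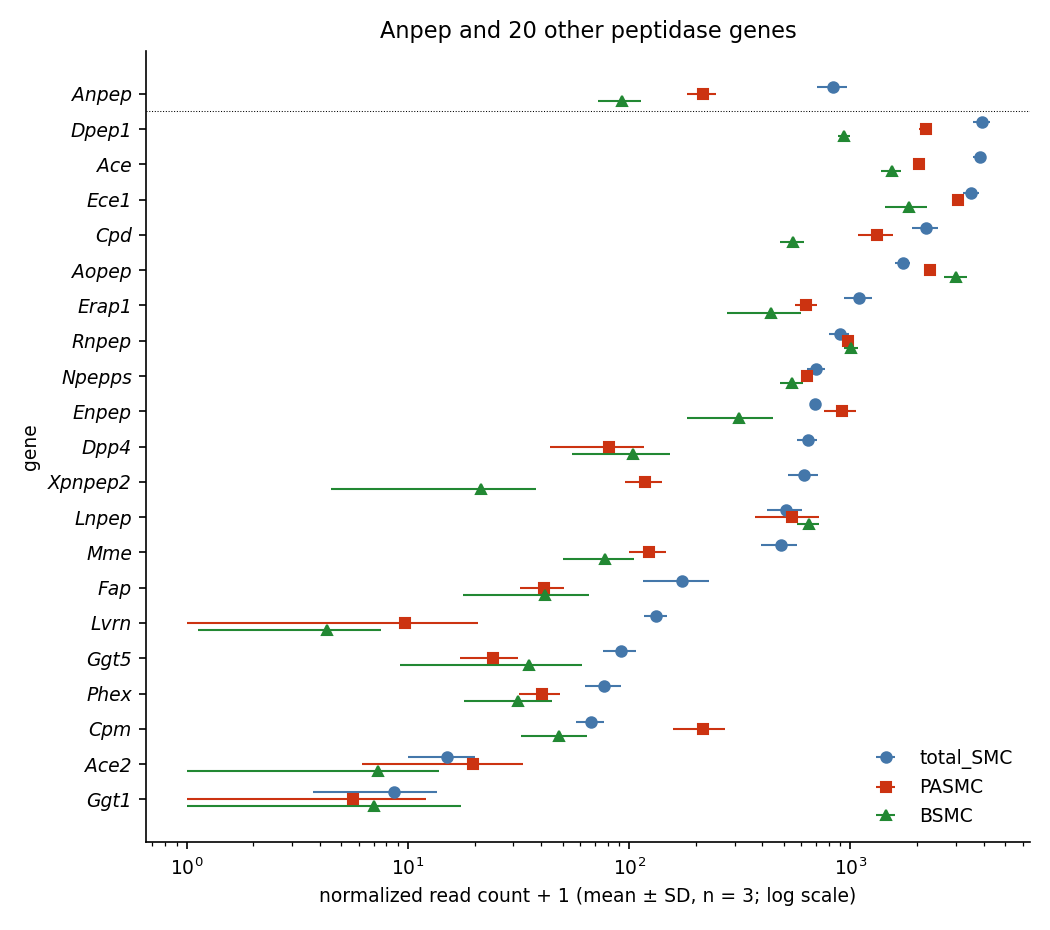
Normalized read count plus 1 (x axis, log scale; mean ± SD of 3 libraries, lower whiskers ending at a count of 0) of Anpep, above the dotted line, and 20 other peptidase genes (y axis), with total_SMC, PASMC and BSMC from top to bottom within a gene. The total_SMC mean lay to the right for Anpep, Dpp4, Mme and Fap, and Cpm was highest in PASMC.

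Markers of fibroblasts and mesothelium were highest in total_SMC, as Anpep was, but the mesothelial markers did not follow Anpep between PASMC and BSMC. The summed fibroblast markers, 20 genes, were 8714 to 9612 per 1000000 in total_SMC, 6533 to 7351 in PASMC and 5325 to 6392 in BSMC, with none of the 20 at 0 in a whole group; Dpep1 and Fap stand in this list and among the peptidases. Of these, 9 were higher and 1 lower for total_SMC against PASMC, and 12 higher and 0 lower for total_SMC against BSMC and for PASMC against BSMC. The summed mesothelial markers, 11 genes, were 879 to 1089 per 1000000 in total_SMC, 40 to 66 in PASMC, where Bnc1 and Muc16 were at 0 in all 3 libraries, and 108 to 228 in BSMC. All 11 were higher in total_SMC than in PASMC and 10 were higher than in BSMC, while for PASMC against BSMC 0 were higher and 9 lower. The part of these cells in the level of Anpep was not tested.

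The other 29 measured markers of pericytes did not follow the 6 genes as a group. For total_SMC against PASMC 8 were higher and 8 lower (median -0.13). For total_SMC against BSMC 7 were higher and 13 lower (median -0.38). For PASMC against BSMC 7 were higher and 8 lower (median -0.14), and this count of 15 was 6 without PASMC replicate 1 and 9 without PASMC replicate 2. The share called was 55.2%, 69.0% and 51.7% in these comparisons, against 16.2%, 41.9% and 22.1% of all genes tested. The summed level of the list was lowest in total_SMC, at 5398 to 5729 per 1000000. It was 5994 to 6385 in PASMC and 5947 to 6290 in BSMC, which overlapped.

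Pdgfrb, the receptor that recruits mural cells, averaged 6309 ± 480 in total_SMC, 6049 ± 627 in PASMC and 3671 ± 688 in BSMC. It was higher in total_SMC than in BSMC by 0.80 (SE 0.14, adjusted p 0.00103) and in PASMC than in BSMC by 0.73 (SE 0.14, adjusted p 0.00352), whereas for total_SMC against PASMC it did not pass (0.06, SE 0.14, adjusted p 0.842). The markers that were lower in total_SMC, as Cspg4 and Mcam were, included Rgs5, Notch3 and Gucy1b1. Rgs5, a regulator of G protein signalling and a classic pericyte marker, averaged 378 ± 68.0 in total_SMC, 1141 ± 77.3 in PASMC and 661 ± 183 in BSMC (total_SMC against PASMC -1.61, SE 0.21, adjusted p 0.000392). Notch3, the Notch receptor of mural cells, was lower in total_SMC than in PASMC by -0.99 (SE 0.19, adjusted p 0.0044) and than in BSMC by -0.86 (SE 0.19, adjusted p 0.00485). Gucy1b1, a subunit of the nitric oxide receptor, was lower by -0.90 (SE 0.16, adjusted p 0.00213) and -1.10 (SE 0.16, adjusted p 0.000255) in the same comparisons. Kcnk3, a potassium channel of pulmonary arterial muscle, averaged 1523 ± 209 in total_SMC, 2790 ± 58.5 in PASMC and 3809 ± 747 in BSMC, and was lower in total_SMC than in BSMC by -1.31 (SE 0.15, adjusted p 6.49e-05).

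The markers highest in total_SMC, as Anpep was, included Steap4, Lamc3, Abcc9 and Cd248. Steap4, a metalloreductase, averaged 2457 ± 29.6 in total_SMC, 505 ± 83.0 in PASMC and 208 ± 105 in BSMC, and was higher in total_SMC than in BSMC by 3.73 (SE 0.35, adjusted p 1.47e-05). Lamc3, a laminin chain, averaged 1752 ± 52.4 in total_SMC, 720 ± 75.4 in PASMC and 315 ± 60.7 in BSMC (total_SMC against BSMC 2.49, SE 0.16, adjusted p 7.48e-07). Abcc9, the sulfonylurea receptor of the mural potassium channel, averaged 4398 ± 390 in total_SMC, 2576 ± 505 in PASMC and 750 ± 319 in BSMC (total_SMC against BSMC 2.63, SE 0.24, adjusted p 1.17e-05). Kcnj8, the pore subunit of that channel, which was chosen after its values were seen, averaged 1918 ± 106 in total_SMC and 1102 ± 32.0 in BSMC (0.80, SE 0.11, adjusted p 0.00016). Cd248, endosialin, was higher in total_SMC than in BSMC by 1.35 (SE 0.17, adjusted p 0.000107).

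Vtn and Trpc6 had their highest means in BSMC, as Higd1b and Cox4i2 did. Vtn, vitronectin, averaged 136 ± 37.3 in total_SMC, 99.0 ± 37.2 in PASMC and 445 ± 241 in BSMC, and was lower in total_SMC than in BSMC by -1.61 (SE 0.37, adjusted p 0.00575) and lower in PASMC than in BSMC by -2.10 (SE 0.37, adjusted p 0.00234). Trpc6, a cation channel, averaged 131 ± 22.1 in total_SMC, 44.3 ± 21.0 in PASMC and 216 ± 24.7 in BSMC. It was higher in total_SMC than in PASMC by 1.64 (SE 0.33, adjusted p 0.00506) and lower in PASMC than in BSMC by -2.36 (SE 0.33, adjusted p 0.000471), the order of means that Higd1b had, but for total_SMC against BSMC it did not pass (-0.72, SE 0.33, adjusted p 0.0983). Defining pericyte markers were therefore present in every group, and no single order of the groups held for them.

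**Figure D5:**
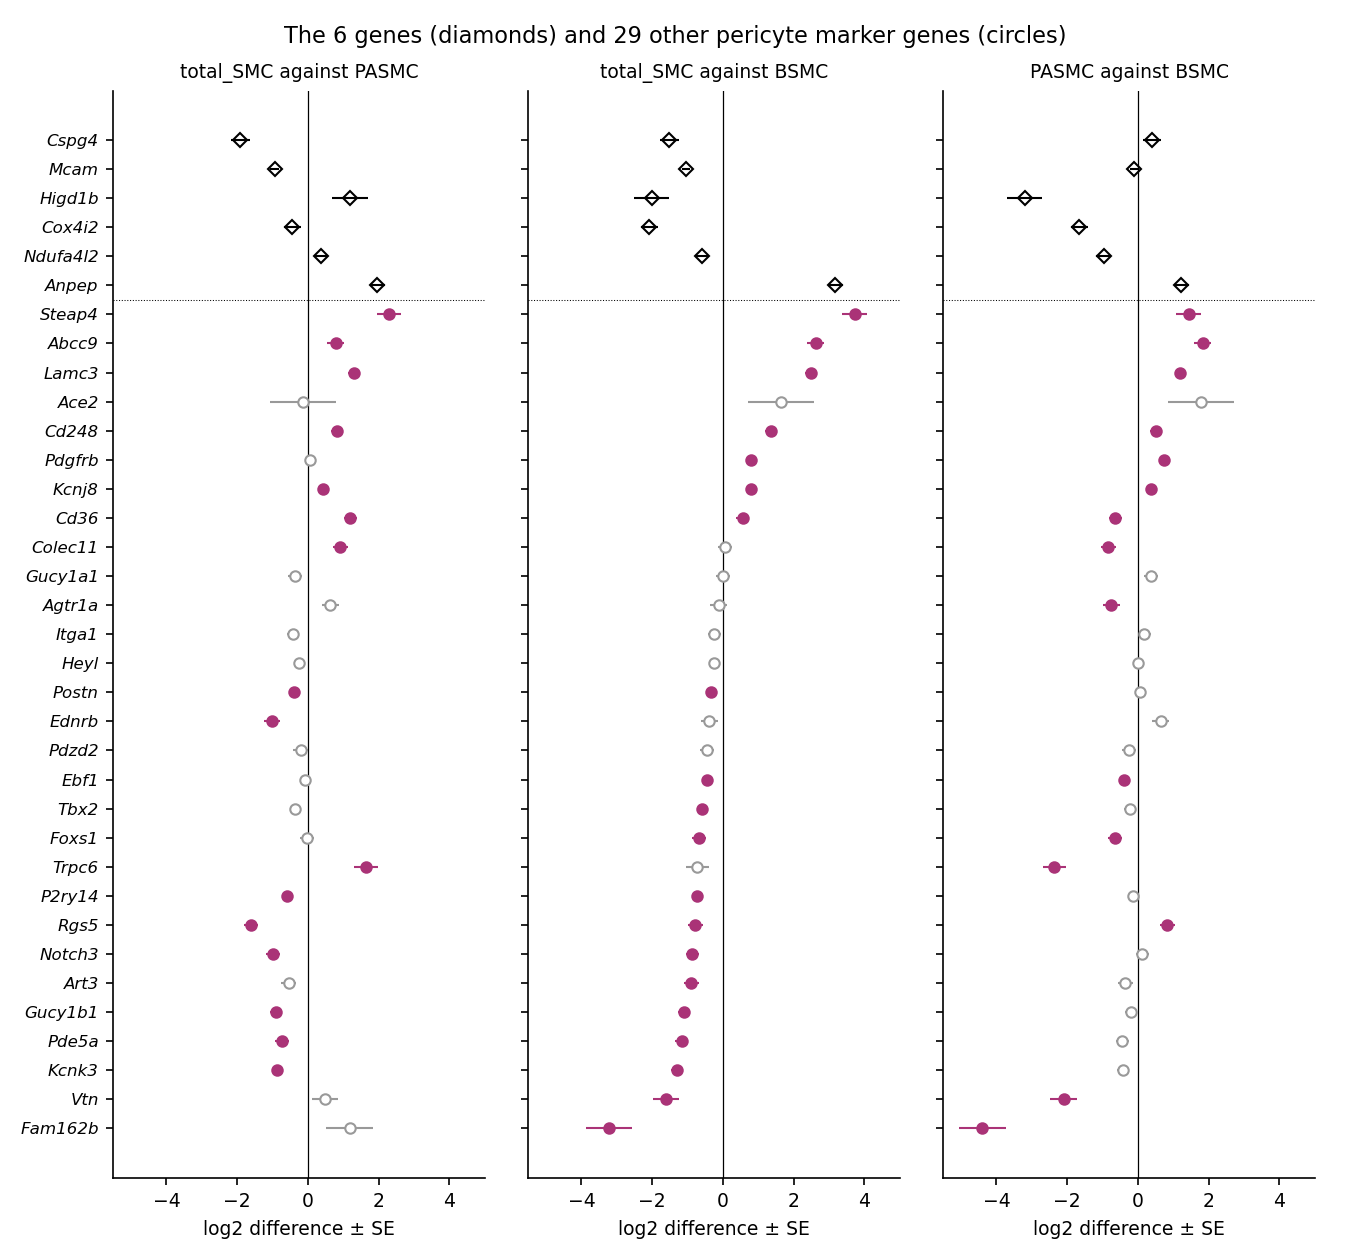
Log2 difference with its SE (x axis) in the 3 comparisons for the 6 genes (open diamonds, above the dotted line, no test) and the 29 other pericyte markers (circles, filled where the limma adjusted p was under 0.05), ordered by total_SMC against BSMC. Markers spread to both sides of 0 in each panel, from Steap4 at 3.73 to Fam162b at the other end in the middle panel.

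The genes most like each member were sought among 10386 protein-coding genes with a mean of at least 100, by the same root mean square difference over 9 libraries. For Cspg4 they were Myl7 at 0.240, Dsp at 0.276 and Jph2 at 0.317. For Mcam they were Parm1 at 0.0752, Six5 at 0.101 and Rgs2 at 0.109. For Higd1b no gene came closer than H2-DMa at 0.456, followed by Slfn2 at 0.515 and Alox5ap at 0.613. For Cox4i2 Rassf4 was nearest at 0.101, ahead of Hebp1 at 0.231 and Lrg1 at 0.237. Lsm2 and Gng8, both at 0.149, and Fkbpl at 0.151 were nearest to Ndufa4l2, and Arsi at 0.130, Fzd4 at 0.192 and Ptges at 0.193 to Anpep. On the 3 group means alone, the genes named for Higd1b and Cox4i2 again ranked 1 to 3, and those for Anpep 2, 4 and 5. Those for Cspg4 ranked 10, 28 and 35, those for Mcam 32, 27 and 60, and those for Ndufa4l2 14, 29 and 90. The choice for Cspg4, Mcam and Ndufa4l2 thus depended in part on single libraries within groups. Fzd4, a Wnt receptor and one of the CD146 partners, averaged 2882 ± 231 in total_SMC, 803 ± 67.6 in PASMC and 312 ± 66.2 in BSMC.

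H2-DMa, which loads peptides onto MHC class II, averaged 144 in total_SMC, 47 in PASMC and 461 in BSMC. Markers of lung epithelium, 16 genes, summed to 608 to 823 per 1000000 in total_SMC, 1079 to 1255 in PASMC and 801 to 964 in BSMC. Schwann cell genes, which matter here because glial cells also carry NG2, summed to 29 to 34 per 1000000 in total_SMC, 21 to 22 in PASMC and 24 to 35 in BSMC over 7 genes.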

How the data were processed

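RNA from sorted mouse lung smooth muscle cells was sequenced in 9 libraries, 3 each of total_SMC, PASMC and BSMC. Per the submitters' processing notes, the build was mm39 and the tools were DESeq2 1.36.0, featureCounts 2.0.4, Picard 3.1.1, STAR 2.7.11a and Trimmomatic 0.39; their roles and order are not given in the sources used here. The deposited values are recorded with the unit score: they are read counts per gene that the authors had normalized and rounded to whole numbers, as the spacing of the values shows, and not raw counts. A factor per library was recovered from that spacing, which on simulated libraries was off by at most 0.0003%, and value over factor is called implied reads.

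The 15647 genes tested reached 10 in 3 or more libraries. They entered, as log2(value + 1), 1 limma 3.58.1 fit of all 9 libraries (R 4.3.3; lmFit, eBayes with trend and robust options). Benjamini-Hochberg adjustment ran over all of them, with a threshold of 0.05. Exon lengths were matched by gene identifier in GENCODE vM21 for 96.7% of genes. Tables and plots used Python 3.11.15, numpy 2.4.6, pandas 2.3.3 and matplotlib 3.10.9. Libraries were not weighted by depth, and no counting interval was computed, since molecules carried no identifiers and the spread between libraries is given. The fit was tested on simulated data.

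The 6 genes and all lists were chosen with earlier results of these data known. Of each list, the genes to name were up to 4 called members in each direction with the largest differences whose higher group averaged 100 or more, and the 2 most abundant without a call; the text names a part of these, and a gene named for 1 comparison may be given in the others. Alternatives were other scalings, filters, pseudocounts and weights, a replicate block, another length, and leaving out each library.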

Additional observations from a re-analysis of the deposited data

How the results depend on the processing

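All 6 genes kept the direction of each difference under all 20 alternatives, except Mcam for PASMC against BSMC. That difference, -0.11 as reported, was -0.20 with equal totals, -0.23 with quantile normalization, -0.25 with cyclic loess and 0.13 on implied reads without scaling. Mcam for total_SMC against BSMC was -1.22 with quantile normalization and -0.87 on implied reads. The count of genes called for total_SMC against PASMC was 5082 with array weights, against 2539. With plain eBayes, the list members called for PASMC against BSMC were 31, against 54, and the pericyte markers 9, against 15. Other list counts also moved: with array weights 14 hypoxia targets and 11 NG2 partners were called for total_SMC against PASMC, against 8 and 7. The difference of Pdgfrb for total_SMC against PASMC, which never passed, was -0.00 with equal totals, -0.03 with quantile normalization and -0.01 to 0.14 when a library was left out (lowest without PASMC replicate 3); that of Cox4i1 was 0.03 with array weights and -0.10 to 0.02 when a library was left out. The causes were not tested.

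Leaving out 1 library at a time gave 1597 to 3205 genes called for total_SMC against PASMC, 4254 to 8056 for total_SMC against BSMC (6553 in all libraries) and 1701 to 6364 for PASMC against BSMC (3451 in all libraries; the highest without BSMC replicate 2). List members called were 34 to 63, 73 to 114 and 25 to 94 in the same comparisons, and pericyte markers 11 to 18, 17 to 21 and 6 to 18. The difference for PASMC against BSMC was -3.64 to -2.61 for Higd1b, -1.93 to -1.41 for Cox4i2 and -1.21 to -0.74 for Ndufa4l2. Blocking on replicate number, 2286, 6350 and 3287 genes were called in the 3 comparisons. No pairing by number was seen: the deviations of same-numbered libraries from their group means correlated at -0.124 to 0.136. Differently numbered libraries gave -0.19 to 0.14. With 3 libraries in a group, these correlations cannot exclude a shared day or batch. Depth limits Higd1b in PASMC most, where 1 library had a count of 10.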
